A study of Mus musculus with 19 samples.

Results

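The genes described here encode the receptors for glutamate, GABA (gamma-aminobutyric acid) and glycine in mouse dorsal root ganglia, which hold the cell bodies of the sensory neurons that serve the limbs and trunk. They were chosen by gene symbol: every subunit of the AMPA, kainate, NMDA, GABA-A, GABA-B and glycine receptors and every metabotropic glutamate receptor with any count, apart from Gabra6 and Grin2c. This gave 48 genes of 56691 entries in the count table. Of these, 46 passed the filter on low counts and were tested. Glra4 (glycine receptor alpha) and Gabrp (the GABA-A pi subunit) did not pass.

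Bulk poly(A) RNA was sequenced from 19 male mice, all homozygous for MaFIA (macrophage Fas-induced apoptosis), a transgene driven by the Csf1r promoter whose product triggers cell death when the drug AP20187 joins its copies. Mice were either naive or had undergone destabilization of the medial meniscus (DMM), a surgical model of knee osteoarthritis, and were studied 8 weeks after surgery or at the matching age. They received AP20187 or vehicle daily on 5 days, and the ganglia L3 to L5 of the operated side were pooled for each mouse. The groups were naive with vehicle (n = 5), naive with AP20187 (n = 4), DMM with vehicle (n = 5) and DMM with AP20187 (n = 5). All groups carried the transgene, so no group shows AP20187 in mice without it, and no label gives a sham operation.

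Libraries held 60984830 to 74691396 counts. The summed level of 15 pan-neuronal genes was 9579 to 19276 CPM (counts scaled to library size, with TMM factors) in naive vehicle, 2970 to 13341 in naive AP20187, 6839 to 17080 in DMM vehicle and 2478 to 8730 in DMM AP20187. The summed level of 10 granulocyte genes was 772 to 2137 CPM, 7970 to 27436, 371 to 7352 and 16751 to 29061 in the same order. DMM vehicle mouse 64 stood apart from its group, with the lowest pan-neuronal and the highest granulocyte level of the 5. Csf1r, the gene whose promoter drives the transgene, was at 69.6 ± 36.2 CPM (SD, n = 5) in DMM AP20187 and 70.6 ± 48.9 (SD, n = 5) in DMM vehicle. In naive mice it was at 69.9 ± 13.1 CPM with AP20187 (SD, n = 4) and 51.2 ± 29.6 with vehicle (SD, n = 5). In this bulk tissue, fewer cells of a type and less RNA per cell cannot be told apart.

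Glutamate is the transmitter that most sensory neurons release. Its ionotropic receptors (AMPA, kainate and NMDA) are tetramers that pass cations, and its metabotropic receptors act through G proteins. GABA and glycine open chloride channels built of 5 subunits, and GABA also acts on GABA-B, a G-protein-coupled receptor made of a Gabbr1 and a Gabbr2 protein. Sensory neurons keep a high internal chloride, so that GABA-A receptors depolarise them, and receptors on their central endings set how much transmitter they release.

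In naive vehicle ganglia the order of levels was led by subunits of GABA-B, kainate and glycine receptors. Levels between genes are compared here in FPKM, which scales fragments to transcript length and library size. Gabbr1 was highest at 55.3 ± 12.8 FPKM (SD, n = 5), followed by Grik1, the kainate subunit GluK1, at 46.0 ± 9.84 and Glrb, the glycine receptor beta subunit, at 32.2 ± 7.64. Gabbr2 followed at 23.4 ± 7.85 FPKM. Gria4, Grm7 and Grin1 lay between 10 and 15 FPKM. In all, 10 genes had a mean of 10 FPKM or more, 15 lay between 1 and 10, 12 between 0.1 and 1, and 11 under 0.1. The ranges over mice overlapped for 45 of the 47 pairs of neighbours in this order, so that adjacent ranks were not separated by the spread. The 2 exceptions were Grik2 above Gabrb1 and Gabrd above Grm3.

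**Figure D1:**
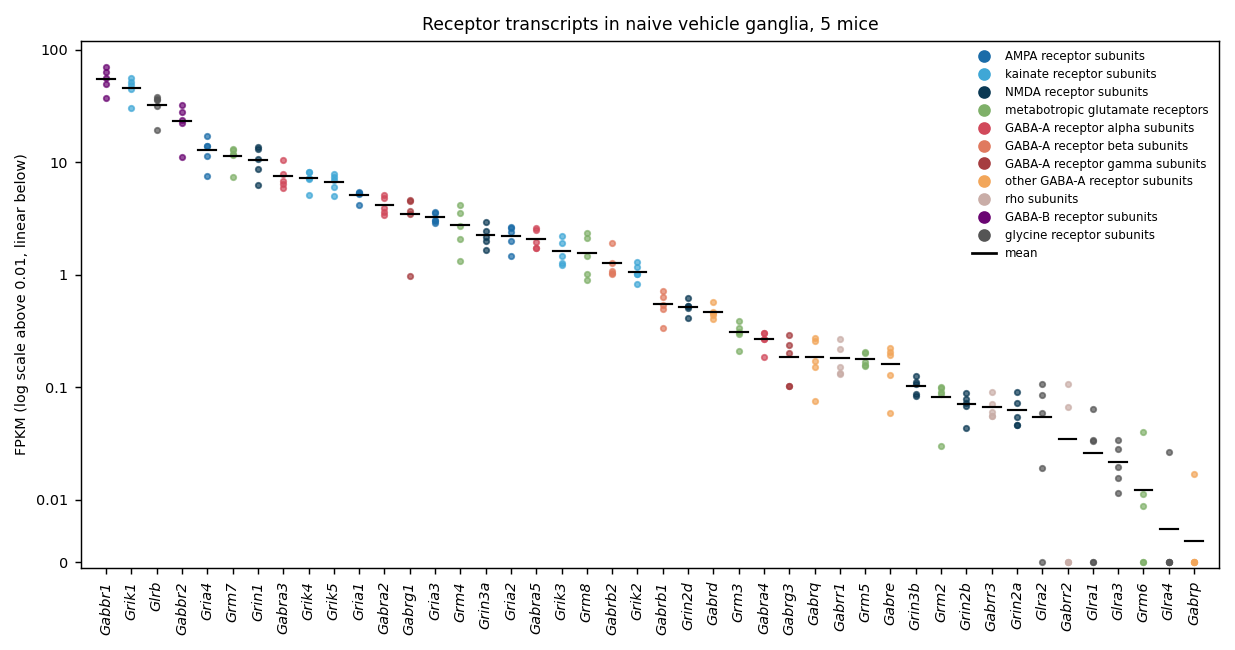
FPKM of the receptor genes in the 5 naive vehicle mice, on a log axis that turns linear below 0.01. Points are mice, black lines group means and colours receptor families. Gabbr1, Grik1 and Glrb lie at the top, whereas the means of Grin2a, Grin2b and all glycine receptor alpha subunits lie under 0.1.

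Partner subunits of one receptor were often at very different levels. In the NMDA family, Grin1, the subunit every NMDA receptor needs, was at 10.4 ± 3.12 FPKM (SD, n = 5). The GluN2 subunits that carry the glutamate site were far lower: Grin2d, the highest, was at 0.519 ± 0.072, Grin2b at 0.07 ± 0.0168 and Grin2a at 0.0619 ± 0.0194. Grin3a, a glycine-binding subunit, was at 2.24 ± 0.47 FPKM. The glycine receptor showed the same kind of gap: Glrb stood at 32.2 FPKM, but the channel-forming alpha subunits Glra1 to Glra4 had means of 0.0537 or less, and in naive vehicle Glra2, the highest of them, ranged from 0 to 0.106. Transcript levels in whole ganglia do not show which subunits meet in the same cell.

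Among AMPA subunits, Gria4 led with 12.7 ± 3.53 FPKM (SD, n = 5). Gria2, whose edited form makes AMPA receptors impermeable to calcium, was the lowest of the 4 at 2.22 ± 0.509. Among kainate subunits, Grik1 led by a wide margin over Grik4 (7.17 FPKM), Grik5 (6.62), Grik3 (1.61) and Grik2 (1.06). Of the metabotropic receptors, 3 of group III, which lower transmitter release, had the highest levels: Grm7 at 11.2 ± 2.27 FPKM, Grm4 at 2.76 ± 1.13 and Grm8 at 1.57 ± 0.646. Group I and II receptors were lower, with Grm3 at 0.307 and Grm5 at 0.177. Grm6, the group III receptor of retinal bipolar cells, was the lowest of the family at 0.0121 ± 0.0165.

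Of the GABA-A subunits, Gabra3 was at 7.49 ± 1.81 FPKM (SD, n = 5) and Gabra2 at 4.17 ± 0.755. Of the extrasynaptic delta subunit Gabrd there was 0.468 ± 0.063 FPKM, and the rho subunits Gabrr1, Gabrr2 and Gabrr3 summed to 0.282 ± 0.103. Of the GABA-A and rho genes, 15 lie in 5 clusters of neighbouring genes, and members of a cluster differed widely in level. On the X chromosome (71299605 to 71886208, in the positions of the files, build GRCm39 per the submitters' processing notes) Gabra3 was 46.5 times Gabre. The chromosome 5 cluster (Gabrg1, Gabra2, Gabra4 and Gabrb1) spanned a ratio of 15.7.

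AP20187 in DMM mice was set against vehicle in DMM mice, to ask how drug treatment after joint injury related to receptor transcripts. Of 46 receptor genes, 10 were lower with AP20187 and 0 were higher in edgeR's quasi-likelihood test, at an adjusted p under 0.05. Over all 21840 genes, 12.9% were called lower and 11.8% higher. The 10 were 3 of 5 kainate subunits, 2 of 8 metabotropic receptors, and 1 each of the AMPA, NMDA, GABA-A beta, GABA-A gamma and GABA-B subunits. No GABA-A alpha, rho or glycine receptor subunit passed. The median log2 fold change of the receptor genes was -0.70, against -0.10 for all genes, and 40 of the 46 estimates were below 0. In 0 of the 46 genes did the 5 AP20187 mice all lie outside the range of the vehicle mice, while 4.28% of all genes lay wholly below it and 8.87% wholly above.

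**Figure D2:**
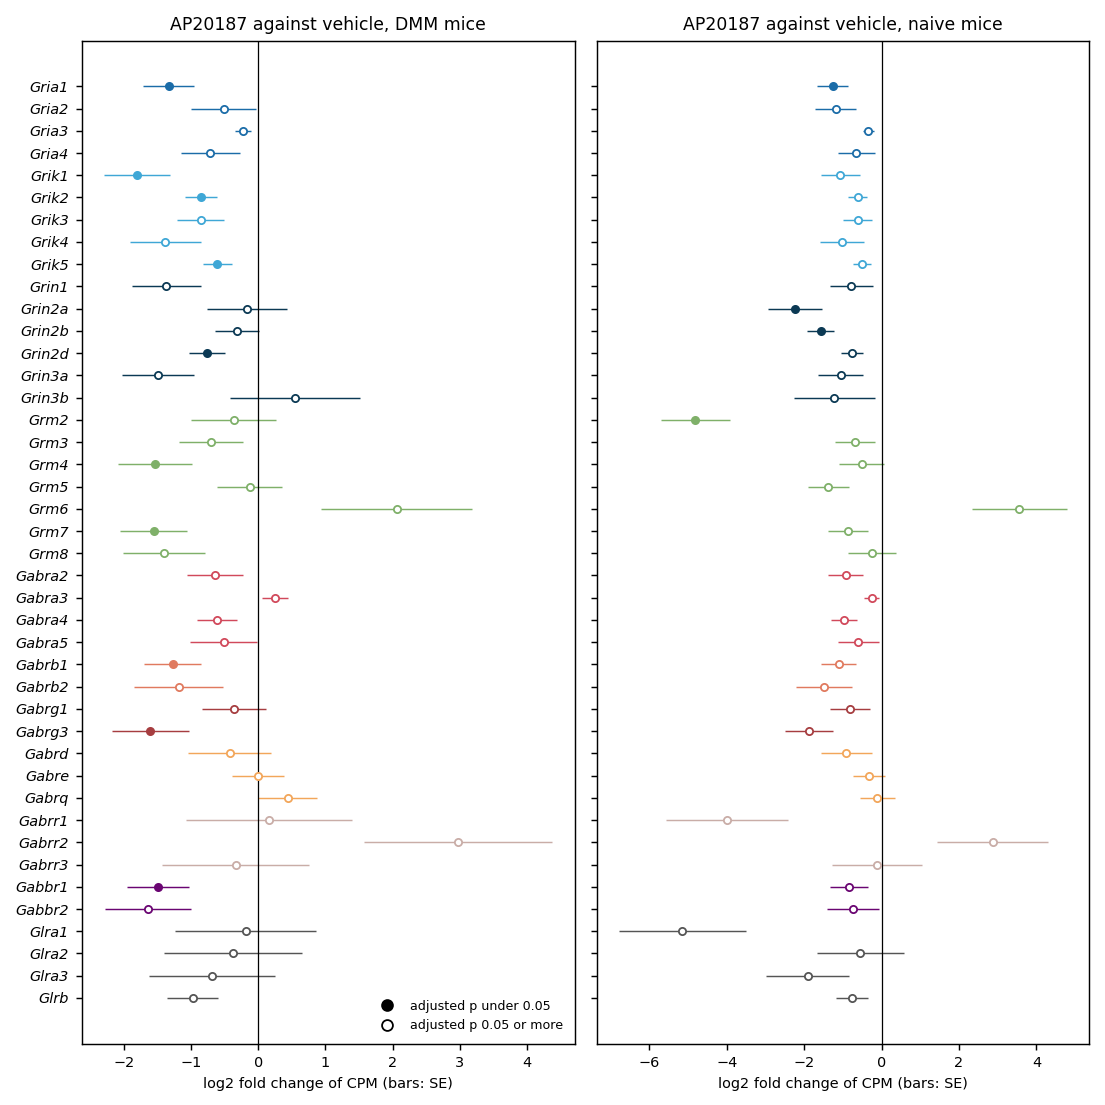
Log2 fold change of CPM, AP20187 against vehicle, for tested receptor genes in DMM mice (left) and naive mice (right). Bars are standard errors, colours receptor families, and filled points passed an adjusted p of 0.05. All filled points lie to the left of 0, among them Grik1 in DMM and Grm2 in naive mice.

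The kainate subunits Grik1, Grik2 and Grik5 were lower. Grik1 was at 18, 79.1, 58.5, 143 and 64.9 CPM in DMM AP20187 mice 58 to 62. In DMM vehicle it was at 314, 373, 287, 221 and 82.5 in mice 32, 33, 34, 63 and 64. Only vehicle mouse 64 and AP20187 mouse 61 made the groups overlap: 64 was the lowest of its group and 61 the highest of the other. The log2 fold change was -1.81 ± 0.49 (SE, adjusted p = 0.0136, edgeR), a level 28.4% of that with vehicle. Grik2, the GluK2 subunit, was at 4.62, 12.5, 7.37, 9.46 and 7.41 CPM with AP20187 and at 17, 17.5, 14.9, 17 and 8.84 with vehicle. Here mouse 64 alone fell within the range of the AP20187 mice. Its log2 fold change was -0.86 ± 0.24 (SE, adjusted p = 0.0147, edgeR). Grik5, the GluK5 subunit that raises the affinity of kainate receptors, was at 15.1, 18.6, 16.1, 25.3 and 17.8 CPM against 29.3, 36.7, 34.1, 22.1 and 19.5, with overlap at AP20187 mouse 61 and vehicle mice 63 and 64. It was lower by the smallest amount of the 10, at -0.61 ± 0.21 on the log2 scale (SE, adjusted p = 0.0456, edgeR). Grik3 and Grik4, the others of the family, had estimates of -0.86 and -1.39 and adjusted p of 0.0742 and 0.0633.

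Gria1, the AMPA subunit GluA1, was at 5.99, 8.24, 9.34, 18.3 and 9.65 CPM with AP20187 and at 29.3, 38.7, 30.1, 22.5 and 10.2 with vehicle. Apart from AP20187 mouse 61 and vehicle mouse 64 the groups were separate. The log2 fold change was -1.34 ± 0.38 (SE, adjusted p = 0.0168, edgeR). Gria3 (GluA3) behaved differently in size: it was at 24.6, 32.6, 27.1, 30.1 and 30.5 CPM against 36.5, 35.6, 35.7, 30 and 31.8, an estimate of -0.23 ± 0.12 (adjusted p = 0.18). Gria2 and Gria4 had estimates of -0.52 and -0.72 and did not pass.

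Of the NMDA subunits, Grin2d alone passed. It was at 1.05, 1.95, 2.31, 1.73 and 1.54 CPM with AP20187 and at 3.68, 3.35, 3.31, 2.37 and 1.95 with vehicle, and AP20187 mice 59 and 60 reached the level of vehicle mouse 64. The log2 fold change was -0.77 ± 0.27 (SE, adjusted p = 0.0431, edgeR). Grin2d overlaps a gene of the opposite strand, Gm45441, and the use of strand in counting is not given in the sources used here. Grin1 was at 38.6% of vehicle with an adjusted p of 0.0585, and Grin3a at 35.4% with 0.0514, so that larger estimates than that of Grin2d missed the threshold. Grin2a and Grin2b, at 89.1% and 80.1%, did not pass either.

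The metabotropic receptors Grm7 and Grm4, both of group III, were lower. Grm7 was at 3.86, 16.8, 14.1, 40.1 and 18.8 CPM with AP20187 and at 70.6, 82.1, 65.5, 41.7 and 16.4 with vehicle. Vehicle mouse 64 fell in the middle of the AP20187 values, while the other 4 vehicle mice were above all of them. The log2 fold change was -1.56 ± 0.50 (SE, adjusted p = 0.03, edgeR). Grm4 was at 1.13, 4.11, 4.1, 8.42 and 6.07 CPM against 16.6, 24.8, 16.9, 7.17 and 3.7, and here mouse 63 overlapped too. Its log2 fold change was -1.54 ± 0.55 (SE, adjusted p = 0.0497, edgeR). Grm8, the remaining group III receptor measured here above 1 FPKM, had an estimate of -1.41 and an adjusted p of 0.0939. The group I receptor Grm5 had an estimate of -0.13.

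Gabbr1, the ligand-binding subunit of GABA-B and the receptor gene of highest level, was at 41.5, 103, 87.4, 240 and 148 CPM with AP20187. With vehicle it was at 432, 553, 408, 247 and 111. Vehicle mice 32, 33, 34 and 63 lay above every AP20187 mouse, and mouse 64 lay among them. The log2 fold change was -1.50 ± 0.46 (SE, adjusted p = 0.0265, edgeR), a level 35.4% of that with vehicle. Gabbr2, its partner, had an estimate of similar size, -1.65 ± 0.64, and an adjusted p of 0.0646. Gabrb1, a GABA-A beta subunit, was at 1.36, 2.39, 3.24, 4.97 and 1.97 CPM against 8.89, 10.1, 7.05, 4.69 and 3.17, with overlap at AP20187 mice 60 and 61 and vehicle mice 63 and 64. Its log2 fold change was -1.28 ± 0.43 (SE, adjusted p = 0.0357, edgeR). Gabrg3, a GABA-A gamma subunit of low level, was at 0.29, 0.739, 0.247, 1.57 and 0.549 CPM against 3.04, 3.2, 2.6, 0.868 and 0.669, with overlap at AP20187 mice 59 and 61 and vehicle mice 63 and 64. Its log2 fold change was -1.61 ± 0.57 (SE, adjusted p = 0.0453, edgeR). Of the alpha subunits, Gabra2 and Gabra4, neighbours of Gabrb1, had estimates of -0.65 and -0.62, while Gabra3 on the X chromosome stood at 0.25 ± 0.19 (adjusted p = 0.355).

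Glrb had an estimate near those of the genes above but missed the threshold. Glrb was at 31.4, 55.6, 73, 103 and 102 CPM against 183, 175, 165, 121 and 75.8, an estimate of -0.98 ± 0.38 (adjusted p = 0.0674). Vehicle mouse 64 alone fell within the range of the AP20187 mice. Gabrb2, a GABA-A beta subunit, was at 43.8% of vehicle (adjusted p = 0.198). The glycine receptor alpha subunits Glra1, Glra2 and Glra3, which assemble with Glrb, had estimates from -0.69 to -0.19 with standard errors of 0.94 to 1.05. Among the other GABA-A subunits, Gabrd, Gabre and Gabrq had estimates of -0.43, -0.01 and 0.44, and Gabra5 and Gabrg1 of -0.52 and -0.36. The 6 genes with estimates above 0 were Grin3b, Grm6, Gabra3, Gabrq, Gabrr1 and Gabrr2, and 0 of them passed.

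Summed by family, GABA-B subunits were at 61.5 ± 32.4 FPKM in DMM vehicle and 20.5 ± 13.5 in DMM AP20187 (SD, n = 5 each), and kainate subunits at 50.3 ± 20.4 and 17.0 ± 8.76. GABA-A alpha subunits were at 23.5 ± 7.81 and 16.6 ± 2.81 FPKM, and within that sum Gabra3 was at 6.68 ± 0.92 and 7.77 ± 1.08. The same sums in naive mice were 78.7 ± 20.5 (n = 5) and 40.4 ± 24.4 (n = 4) for GABA-B subunits, 62.5 ± 11.9 and 28.7 ± 16.4 for kainate subunits, and 27.6 ± 2.27 and 14.9 ± 6.81 for GABA-A alpha subunits. These sums are descriptions, carry no test, and overlap between groups in DMM mice for each of the 3 families.

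**Figure D3:**
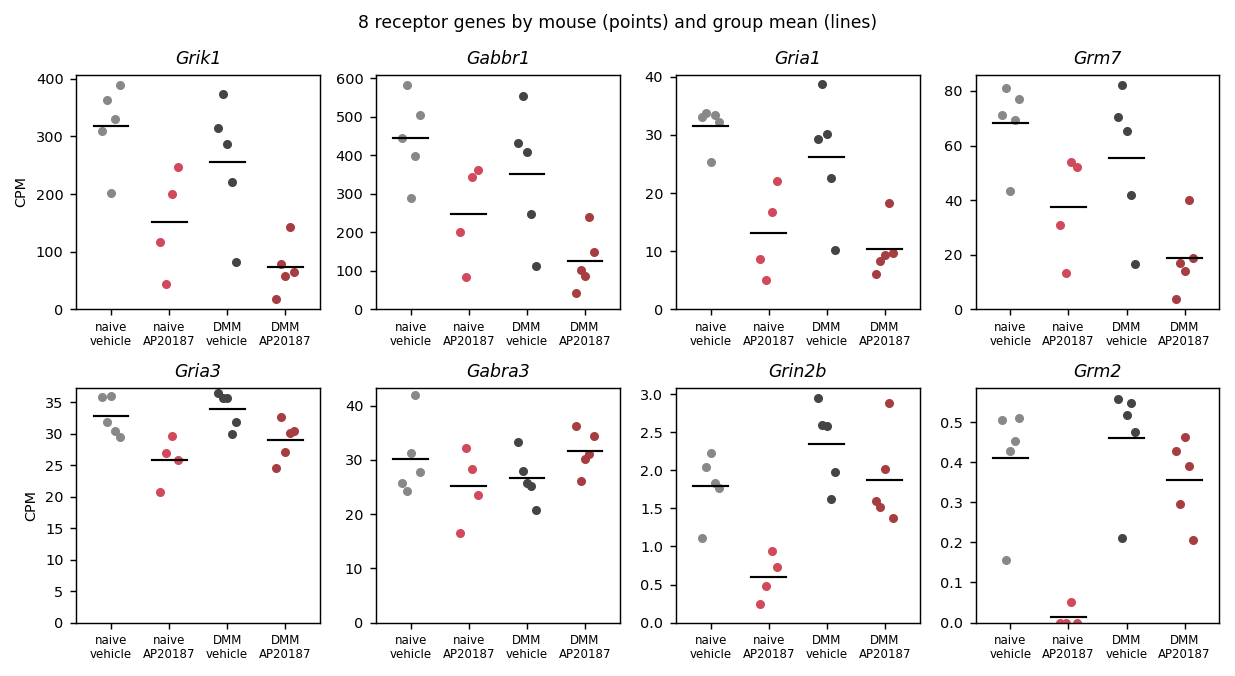
CPM of 8 receptor genes in each mouse (points) with group means (lines), on linear axes that start at 0. Grik1, Gabbr1, Gria1 and Grm7 were lower in DMM AP20187 than in most DMM vehicle mice, group means of Gria3 and Gabra3 lay close together, and Grin2b and Grm2 were lowest in naive AP20187.

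Which of the 10 genes passed depended on single mice. Grik1, Grik2 and Gria1 passed in all 10 fits that left out 1 DMM mouse, though Grik2 did not pass when only the groups compared were fitted (adjusted p = 0.0538). Gabbr1 no longer passed without AP20187 mouse 58, 59 or 60 or vehicle mouse 32, 33 or 34, with adjusted p of 0.0519 to 0.0747. Grm7, Gabrb1, Gabrg3, Grik5 and Grm4 no longer passed without any 1 of these 6 or without AP20187 mouse 62 (adjusted p of 0.0564 to 0.142). Grin2d no longer passed without AP20187 mouse 58, 59, 61 or 62 or vehicle mouse 32, 33 or 34 (0.0573 to 0.114). The count was 3 without AP20187 mouse 58 or 59 or vehicle mouse 32, 33 or 34, and 4 without AP20187 mouse 60 or 62. In these fits 6.2% to 9.45% of all genes were called lower. The count rose to 17 without AP20187 mouse 61, where 16.6% of all genes were called lower, and to 20 without vehicle mouse 64, where 19.1% were. In these fits the share over all genes moved the same way as the receptor count. Without vehicle mouse 63 it did not: the count was 11, where 11.4% of all genes were called lower. The DMM vehicle mice carry numbers of 2 series. Set against mice 32, 33 and 34 alone, 22 receptor genes passed, 1 of them higher, where 19.4% of all genes were called lower and 18.2% higher, and the median log2 fold change of the 46 was -0.93, with 40 below 0. Set against mice 63 and 64 alone, 0 passed, where 2.42% of all genes were called lower and 2.61% higher, and the median was -0.16, with 29 below 0. All 5 DMM AP20187 mice carry numbers from 58 to 62, next to 63 and 64 and not to 32, 33 and 34. The labels do not call the number series a batch, and the drug and the number series cannot be fully told apart in DMM.

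Markers of neurons and of other cell types moved with these genes. In DMM, 10 of the 15 pan-neuronal genes and 8 of 13 nociceptor genes were lower with AP20187 and 0 were higher, and the pan-neuronal median log2 fold change was -1.24. The summed pan-neuronal level was 2478, 4838, 4879, 8730 and 7205 CPM with AP20187, highest in mouse 61, and 16254, 17080, 14387, 14341 and 6839 with vehicle, lowest in mouse 64. Those are the 2 mice at which the groups overlapped for Grik1 and Gria1. Satellite glia markers were lower for 4 of 8, and their summed level was 696 to 1313 CPM with the drug and 1387 to 2040 in the vehicle group, with no overlap. Myelinating Schwann cell markers were lower for 3 of 8, B lineage markers for 7 of 7 and erythroid markers for 4 of 7, and 0 of these lists' genes were higher. All 10 genes of the granulocyte list were tested, and 9 were higher. Of the macrophage list, 2 of 10 were higher and 0 lower. The part of these cell types in the receptor result was not tested.

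The receptor genes were also fitted per pan-neuronal count, with the summed counts of the 15 genes as library size. On this scale 0 receptor genes were lower in DMM with AP20187 and 6 were higher, against 0.316% lower and 43.2% higher of all genes. The 6 were Gria3, Grm5, Grm6, Gabra3, Gabrg1 and Gabrr2. The 10 genes called lower on the CPM scale had estimates from -0.54 (Grik1) to 0.80 (Grik5) per pan-neuronal count, and none of the 10 passed. The median over the receptor genes was 0.61 and that over all genes 1.27. Gria3 had an estimate of 1.14 ± 0.43 (SE, adjusted p = 0.041, edgeR) and Gabra3 one of 1.75 ± 0.52 (adjusted p = 0.0174). Both had a narrow span of levels across the 4 groups, with group means from 25.8 to 34.0 CPM for Gria3 and from 25.1 to 31.6 CPM for Gabra3. Grm6 and Gabrr2 were near the detection floor of 3 counts per library in several mice. The count of 6 was 0 without AP20187 mouse 58, 1 without vehicle mouse 32, 33 or 63, 2 without vehicle mouse 34, 3 without AP20187 mouse 59 and 10 without vehicle mouse 64. The share of all genes called higher was 7.25% in the first of these fits and 61.6% in the last, with the others between 20.1% and 34.5%.

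**Figure D4:**
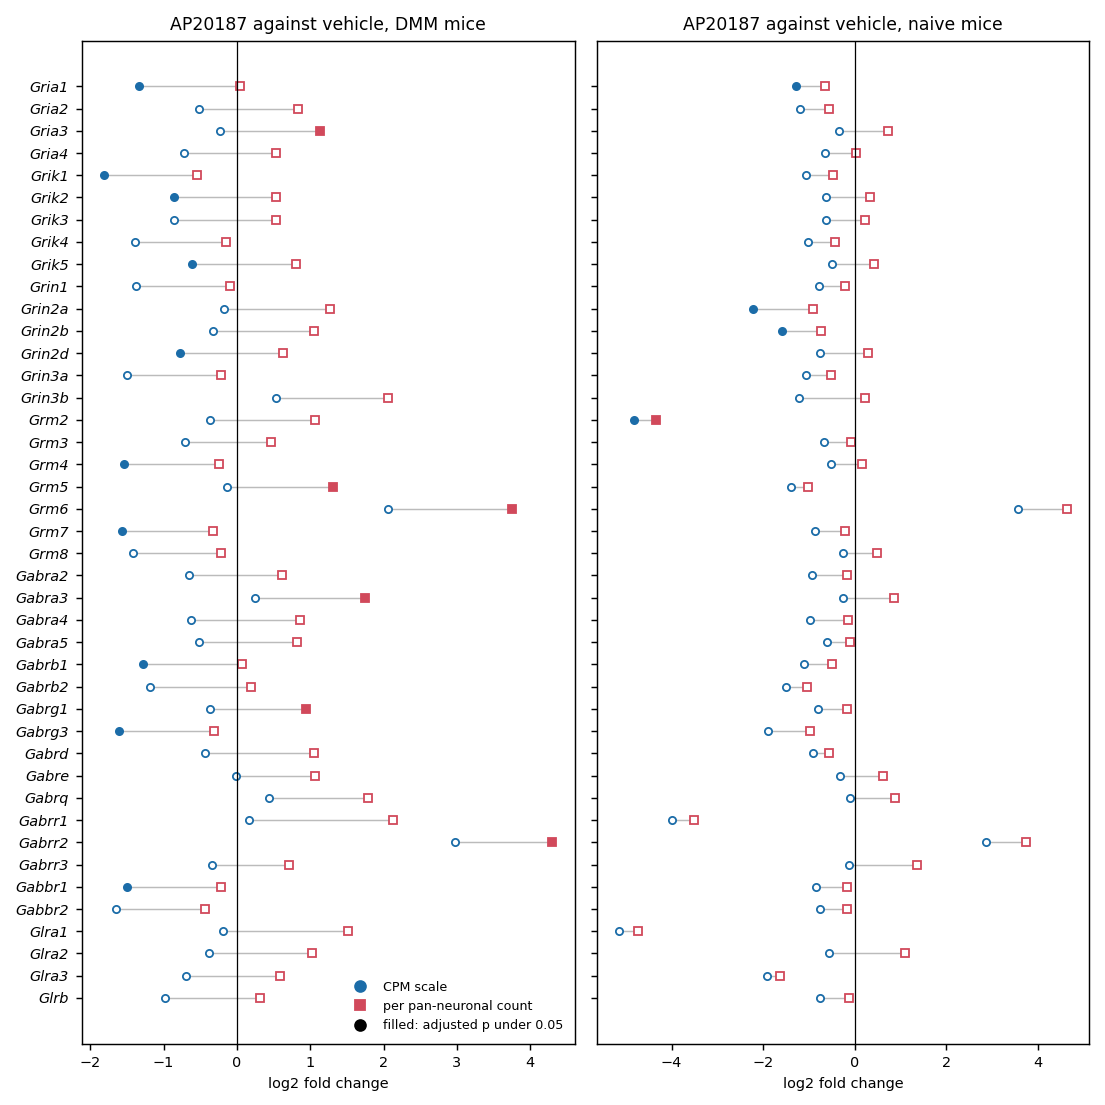
Log2 fold changes of AP20187 against vehicle for tested receptor genes, on the CPM scale (blue circles) and per pan-neuronal count (red squares), in DMM (left) and naive mice (right). Filled symbols passed an adjusted p of 0.05. On the neuronal scale the DMM estimates lie around or above 0, and in naive mice Grm2 alone passed.

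AP20187 was also set against vehicle in naive mice, where no joint had been operated. There, 5 of the 46 receptor genes were lower and 0 higher, against 2.62% and 8.85% of all genes. Those described below are Grm2, Grin2b, Grin2a and Gria1. The median log2 fold change was -0.86 for the receptor genes and -0.07 for all genes, and 44 of 46 estimates were below 0. In 12 of the 46 genes every AP20187 mouse lay below every vehicle mouse, against 6.2% of all genes. In 1, Grm6, every AP20187 mouse lay above, against 9.52% of all genes. Besides the 5 that passed, the 12 held Grik2, Grin3b, Grm5, Gabra2, Gabrb2, Gabrg3 and Gabrr1, whose adjusted p ran from 0.0547 (Gabrg3) to 0.441 (Grin3b).

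Grm2, the group II receptor mGlu2, was listed at 0, 0, 0.0507 and 0 CPM in naive AP20187 mice 1, 3, 4 and 5. In naive vehicle mice 1 to 5 it was at 0.506, 0.156, 0.429, 0.454 and 0.51 CPM. The groups did not overlap. Over the group, AP20187 gave 3 counts, all in mouse 4, and vehicle 140, a level 3.06% of vehicle with an exact 95% interval of 0.623% to 9.12% that covers counting error only. The adjusted p was 0.00298 (edgeR). In DMM mice Grm2 was at 0.427, 0.295, 0.462, 0.391 and 0.206 CPM with AP20187 and 0.558, 0.21, 0.517, 0.548 and 0.476 with vehicle, near the level of naive vehicle.

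Grin2b, the GluN2B subunit, was at 0.244, 0.477, 0.946 and 0.732 CPM with AP20187 and at 1.11, 2.04, 2.23, 1.83 and 1.77 with vehicle. Again the groups were apart, and the log2 fold change was -1.58 ± 0.36 (SE, adjusted p = 0.0105, edgeR). Grin2a, the GluN2A subunit, was at 0.0349, 0.46, 0 and 0.471 CPM against 0.855, 0.874, 1.64, 1.02 and 1.34. Its log2 fold change was -2.23 ± 0.70 (SE, adjusted p = 0.0453, edgeR). Grin1, the subunit these assemble with, was at 58.2% of vehicle with an adjusted p of 0.343.

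Gria1 was at 8.73, 4.97, 16.7 and 22 CPM against 33, 33.8, 25.4, 33.4 and 32.3, with no overlap between the groups. It was the only gene called in both AP20187 comparisons, at -1.27 ± 0.40 here (SE, adjusted p = 0.049, edgeR) and -1.34 in DMM. Grik1 and Gabbr1 had smaller estimates here than in DMM, -1.07 (adjusted p = 0.174) and -0.84 (adjusted p = 0.255).

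Glra1, the glycine receptor alpha1 subunit of adult spinal cord, had 0 counts in all 4 naive AP20187 mice and 23 in the 5 vehicle mice, where 2 mice also had 0. Its adjusted p was 0.0537. Counting error alone allows a level up to 24.8% of vehicle. Grm6 was at 0.854, 1.4, 0.405 and 0.78 CPM against 0.0633, 0, 0.0536, 0.243 and 0, with an adjusted p of 0.0681, so that this separation of the groups did not pass the test. Gabrr1 and Gabrr2, at an adjusted p of 0.105 and 0.189, had estimates of opposite sign.

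Leaving out 1 naive mouse kept Grm2 past the threshold in all 9 fits. Grin2b did not pass without AP20187 mouse 3 (adjusted p = 0.0516). Grin2a did not pass without AP20187 mouse 1 or 3 or any 1 vehicle mouse (0.0514 to 0.118). Gria1 did not pass without AP20187 mouse 1, 3 or 4 or any 1 vehicle mouse (0.0535 to 0.169). The count was 1 without AP20187 mouse 3, 2 without AP20187 mouse 1 or vehicle mouse 1, 2 or 5, and 9 without AP20187 mouse 5. The share of all genes called lower was 0.638% for the first, 0.904% to 1.12% for the next 4 fits and 4.35% for the last. With limma on log2(FPKM + 1), Grin2b (adjusted p = 0.0894) and Grin2a (0.0673) did not pass.

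Transcripts of the central nervous system moved with these low genes. Of 12 central neuron markers, 7 were lower in naive AP20187 than in naive vehicle and 0 were higher. Gabra6, the GABA-A subunit of cerebellar granule cells, and Slc6a5, the glycine transporter of glycinergic neurons, had 0 counts in all 4 naive AP20187 mice, and were at 0.976 ± 0.341 and 0.812 ± 0.267 CPM (SD, n = 5) in naive vehicle. In the DMM groups Gabra6 was at 0.825 and 0.591 CPM on average with vehicle and AP20187. The summed list was at 57.7 to 277 CPM in naive AP20187 and 210 to 414 in naive vehicle, most of it from Camk2a and Slc17a7, which sensory neurons also express. Of 8 markers of central glia, 3 were lower and 0 higher. None of 15 pan-neuronal genes passed here, with a median log2 fold change of -0.75. B lineage markers were lower for 7 of 7, as in DMM. All 10 granulocyte genes were higher, with a median log2 fold change of 3.89. Of the macrophage list, 4 of 10 were higher and 0 lower, and its summed level was 687 to 1359 CPM in naive AP20187 and 119 to 565 in naive vehicle, with no overlap. Skeletal muscle markers summed to 1794 to 2769 CPM in naive AP20187 and 64 to 536 in naive vehicle. The part of these other cells and tissues in the receptor result was not tested.

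Per pan-neuronal count, Grm2 was the only receptor gene that passed in naive mice, at -4.34 ± 1.07 (SE, adjusted p = 0.0238, edgeR), against 0.261% of all genes called lower and 12.1% higher. The count was 0 without AP20187 mouse 3 or vehicle mouse 1, 2 or 5, 2 without AP20187 mouse 5 and 3 without AP20187 mouse 4 or vehicle mouse 4, where 0.263% to 0.782%, 33% and 19.1% to 24.8% of all genes were called in either direction. The median over the receptor genes was -0.17, near 0, while that over all genes was 0.98.

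DMM and naive ganglia with vehicle were compared to ask whether surgery alone went with other receptor levels. None of the 46 receptor genes passed (0% of all genes did), and 0 had an unadjusted p under 0.05, as 1.6% of all genes did. DESeq2 also called 0. The smallest p belonged to Grik5, Grin3b and Gabrq. Grik5 was at 29.3, 36.7, 34.1, 22.1 and 19.5 CPM in DMM vehicle and 31.6, 40, 26.1, 36.8 and 42.2 in naive vehicle, an estimate on the log2 scale of -0.32 ± 0.21 (unadjusted p = 0.153, edgeR). Grin3b, the GluN3B subunit, was at 0, 0.12, 0.137, 0.244 and 0.134 CPM against 0.285, 0.374, 0.295, 0.373 and 0.43. It was the only gene of the 46 whose groups did not overlap, against 0.0962% of all genes wholly below and 0.114% wholly above, and its log2 fold change was -1.46 ± 0.98 (unadjusted p = 0.156, edgeR). Grin3b overlaps Tmem259, a gene of far higher count on the opposite strand. Gabrq, the GABA-A theta subunit, had an estimate of -0.62 ± 0.44 (unadjusted p = 0.172, edgeR) and overlapping groups, at 0.395 to 1.03 CPM in DMM and 0.411 to 1.47 in naive.

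With AP20187, 2 of the 46 genes differed between DMM and naive mice, both higher in DMM, against 0.302% of all genes called higher and 0.49% lower. For Grm2 the log2 estimate was 4.62 (adjusted p = 0.0215, edgeR), from 116 counts in DMM and 3 in naive. For Grin2b it was 1.64 (adjusted p = 0.0457, edgeR). In 3 of the 46 genes (Grin2a, Grin2b and Grm2) every DMM mouse lay above every naive mouse, and in 0 below, against 3.47% and 2.45% of all genes. Per pan-neuronal count 0 receptor genes passed here, against 0.0687% of all genes. At an unadjusted p under 0.05 there were 12 on that scale (26.1% of the 46), where 7.58% of all genes had such a p. On the CPM scale there were 8 (17.4% of the 46, and 16.9% of all genes). This comparison uses the same naive AP20187 mice as the one above, so the low values of those 4 mice enter both. Grm2 did not pass without naive AP20187 mouse 1 (adjusted p = 0.065). Grin2b did not pass without any 1 of the DMM AP20187 mice or without naive AP20187 mouse 1, 3 or 5 (0.0567 to 0.102). In the same comparison 6 of 12 central neuron markers were higher in DMM and 0 lower. Skeletal muscle markers summed to 71.9 to 194 CPM in DMM AP20187 and 1794 to 2769 in naive AP20187, with no overlap. Of these 8 genes, 2 were lower in DMM and 0 higher, with a median log2 fold change of -4.64. The part of these tissues in the receptor values was not tested.

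The interaction, which asks whether the AP20187 difference itself differed between DMM and naive mice, passed for 0 of 46 receptor genes, against 0.119% of all genes. At an unadjusted p under 0.05 there were 5 (10.9% of the 46), where 7.74% of all genes had such a p. DESeq2 called 1 receptor gene, among 215 of all genes. Per pan-neuronal count 0 passed as well, against 0.0229% of all genes, with 7 at an unadjusted p under 0.05 (15.2% of the 46, and 3.91% of all genes). Grm2 had the smallest p, with an estimate of 4.45 ± 1.07 (adjusted p = 0.151), followed by Glra1 (adjusted p = 0.509) and Grin2b (adjusted p = 0.511). Leaving out naive AP20187 mouse 4, the only 1 of its group with Grm2 counts, brought Grm2 past the threshold. For the kainate subunits and Gabbr1, therefore, a difference between the DMM and the naive response was not shown.

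Upstream sequences are shown for 3 genes: Gabbr1 and Grik2, both lower in DMM with AP20187, and Grm2, which passed the test in naive mice with 3 counts left in the AP20187 group. They are the 200 bases before the annotated start, 5′ to 3′ on the strand of the gene, from RefSeq promoters of build GRCm38.p6. For Gabbr1 and Grik2, a reference transcript of the gene held the bases just after the start. For Grm2 none did in either direction, so its start and strand rest on the promoter annotation alone. Capitals mark GC boxes (GGGCGG or its reverse complement CCGCCC).
Gabbr1, chr17:37045766-37045965, plus strand: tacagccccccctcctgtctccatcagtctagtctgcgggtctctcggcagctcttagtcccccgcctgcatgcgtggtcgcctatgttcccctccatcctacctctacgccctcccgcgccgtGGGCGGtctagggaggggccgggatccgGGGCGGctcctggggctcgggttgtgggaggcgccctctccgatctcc
Grik2, chr10:49788755-49788954, minus strand: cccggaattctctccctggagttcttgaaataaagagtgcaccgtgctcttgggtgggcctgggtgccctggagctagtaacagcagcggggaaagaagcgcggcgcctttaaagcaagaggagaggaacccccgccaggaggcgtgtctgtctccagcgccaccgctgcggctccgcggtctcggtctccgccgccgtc
Grm2, chr9:106656110-106656309, minus strand: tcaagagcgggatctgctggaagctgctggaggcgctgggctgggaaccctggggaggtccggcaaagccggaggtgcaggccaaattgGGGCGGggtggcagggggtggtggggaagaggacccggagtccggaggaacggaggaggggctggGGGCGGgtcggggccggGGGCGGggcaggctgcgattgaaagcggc
Gabbr1 held 2 GC boxes in this stretch and Grm2 held 3, while Grik2 held none. The RefSeq table had 41 promoters of 34 of the 48 genes. In the 250 bases before the start, 48.8% of those 41 promoters held a GC box on either strand, against 32.7% of all 32851 promoters. A TATA box (TATAAA, both strands) was in 12.2% and 12.4%. A cyclic AMP response element (TGACGTCA) was in 0 of the 41 and in 1.55% of all. The median GC content was 58.8% for the receptor promoters and 52.4% for all. A match is a run of letters and not a measured binding site.

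Genes that work with these receptors were followed by lists, whose counts stand beside the 12.9% lower and 11.8% higher of all genes in DMM and the 2.62% and 8.85% in naive mice. Per pan-neuronal count, 0 genes of these lists were lower in DMM. On that scale 1 of 12 AMPA auxiliary, 5 of 15 scaffold, 4 of 10 glutamate uptake and 3 of 10 GABA and glycine uptake genes were higher. So were 1 of 4 vesicular transporter and 3 of 6 chloride cotransporter genes, against 43.2% of all genes. AMPA receptor auxiliary subunits, which traffic and gate AMPA receptors, were lower for 6 of 12 in DMM with AP20187 and higher for 0. They included Cacng5 (-1.70 ± 0.47, adjusted p = 0.0166, edgeR) and Shisa6 (-1.30 ± 0.41). In naive mice 3 of 12 were lower, among them Cacng3 (-1.28 ± 0.34) and Shisa6 (-1.51 ± 0.44). Per pan-neuronal count 0 of the 12 passed in naive mice (adjusted p of 0.854 for Cacng3 and 0.278 for Shisa6). Of the kainate auxiliary subunits, Neto2 was lower in DMM (-0.92 ± 0.31), 1 of 2. Of 15 postsynaptic scaffolds tested, 3 were lower in DMM, among them Dlg4 (PSD-95) and Homer2, and Dlg1 (SAP97) was higher. AP20187 mice had 65.8 ± 8.55 CPM of Dlg1 and vehicle mice 41.8 ± 8.4 (SD, n = 5). In naive mice 1 scaffold, Grip2, was lower.

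The vesicular glutamate transporter Slc17a8 (VGLUT3), found in a class of low-threshold sensory neurons, was lower in both comparisons. It was at 4.21 ± 3.03 CPM in DMM AP20187 and 19.7 ± 11.8 in DMM vehicle (SD, n = 5). In naive mice it was at 24.9 ± 6.71 with vehicle (SD, n = 5) and 7.16 ± 3.47 with the drug (SD, n = 4). Slc17a6 (VGLUT2), the main vesicular glutamate transporter of sensory neurons, had an estimate of -1.28 in DMM with an adjusted p of 0.0547. Of 10 genes of GABA and glycine uptake and metabolism, 4 were lower in DMM, among them Abat, Slc6a9 and Aldh5a1. Slc6a5, Gad2, Gad1 and Slc6a11 were lower in naive mice, 4 of 10. Per pan-neuronal count Slc6a5 alone of the 10 passed there (adjusted p = 0.0023, edgeR), with 0.0743 for Gad2, 0.0688 for Gad1 and 0.912 for Slc6a11. The naive calls of the scaffold, vesicular transporter, glutamate uptake and chloride cotransporter lists were also lost on that scale, with 0 passing. Gad1 and Gad2 make GABA. Gad1 was at 6.57 ± 0.663 CPM in DMM AP20187 and 7.22 ± 1.03 in DMM vehicle, and at 1.4 ± 0.776 in naive AP20187 and 6.28 ± 1.25 in naive vehicle. The interaction passed for Slc6a5, Gad1 and Gad2 (adjusted p of 0.000343, 0.0405 and 0.00731, edgeR). It also passed for Slc12a5 (KCC2, the chloride exporter of central neurons; adjusted p = 0.0471). Per pan-neuronal count, of these 4 only Slc6a5 passed (adjusted p = 0.00466, edgeR), with 0.328 for Gad1, 0.277 for Gad2 and 1 for Slc12a5. In the same interaction 4 of the 12 central neuron markers passed, all with positive estimates, and the list's median was 2.00. Slc6a5 and Gad2 belong to both lists. The part of central nervous system transcripts in these values was not tested. Slc12a2 (NKCC1), which loads chloride into sensory neurons, had estimates of -0.46 in DMM and -0.34 in naive and did not pass. Of 10 genes of glutamate uptake and metabolism, 2 were lower in DMM (Slc1a6 and Slc1a4) and 1 in naive mice (Slc1a2, the glial transporter GLT-1).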

How the data were processed

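Per gene, the authors deposited raw counts as whole numbers and, in a further table, FPKM (scaled to gene length and depth). The submitters' processing notes list cutadapt, HISAT2, StringTie and build GRCm39, with no roles, and the libraries were stranded poly(A), per the labels' protocols. Entries without a gene name (6448, holding 0.414% to 1.72% of counts) were left out.

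Counts were fitted with edgeR 4.0.16 in R 4.3.3 (TMM, filterByExpr with a minimum count of 10, quasi-likelihood F test, two-sided) in 1 model of 4 groups and 19 libraries with 15 residual degrees of freedom. Adjusted p are Benjamini-Hochberg values over the 21840 genes tested, with a threshold of 0.05. A further fit took the summed counts of 15 pan-neuronal genes as library size. Alternatives used DESeq2 1.42.0, limma 3.58.1 on log2(FPKM + 1), other scaling and filters, and subsets of mice. Fits were tested on simulated data. Depth was 60984830 to 74691396 counts, and the floor was 3 counts per library. Intervals used counts summed over a group, so they cover counting error only and leave out the spread between mice. Reads carried no molecular identifiers. Each library is 1 mouse, so p-values measure the spread between mice.

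The receptor genes and all lists were chosen with earlier results of these data known. Receptor genes are named with full values where they passed, or, where none did, by the 3 smallest p, with the highest gene of each family. Up to 4 genes that passed are named per list and comparison. Slc17a6 and Slc12a2, which did not pass, were named outside this rule, after their values were seen. The naive groups share mouse numbers, and the main fit left them unpaired. Deviations from the group mean had same-number correlations of 0.0743, 0.556, -0.125 and 0.412. Those between different numbers ran from -0.541 to 0.445. So few pairs cannot settle whether the numbers pair the mice. A few genes enter the fits and counts but are not reported here by name or in the plots.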

Additional observations from a re-analysis of the deposited data

Results flagged for a closer look

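Among 100 groups of 4 or 5 mice examined, covering 25 receptor genes, 5 held a mouse far from the others by Dixon's test. Chance flags about 1 in 20 groups. Grm2 was flagged in 3 groups, all with few counts. In naive vehicle, mouse 2 was at 0.156 CPM and the others at 0.429 to 0.51. In DMM vehicle, mouse 33 was at 0.21 CPM and the others at 0.476 to 0.558. In naive AP20187, mouse 4 was at 0.0507 CPM and the others at 0. Gabrr1, a rho subunit, was at 0.101 CPM in the same mouse 4 and at 0 in the other mice of that group. With 3 of 4 mice at 0, any count in the last one is flagged by construction, so these 2 of the 5 say nothing about an unusual mouse. Gria1 was at 25.4 CPM in naive vehicle mouse 3, below the 32.3 to 33.8 of the others, a gap of 0.827 of the range.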

How the results depend on the processing

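The count of receptor genes that differed with AP20187 in DMM (10) was 13 without TMM, 7 with the size factors of DESeq2 and 5 with no filter on low counts. It was 20 with DESeq2, 10 with limma on log2(FPKM + 1) (9 lower) and 4 with only the groups compared. It was 22 against vehicle mice 32, 33 and 34, and 0 against vehicle mice 63 and 64. Leaving out 1 mouse gave 3 to 20. In naive mice the count (5) was 8 without TMM, 2 with no filter, 13 with DESeq2 (12 lower) and 16 with limma on log2(FPKM + 1) (14 lower). The remaining calls of DESeq2 and limma were higher. With mouse number as a block the count was 3, and leaving out 1 mouse gave 1 to 9. Of all genes, 11.5% were called in either direction (11.2%, 5.53%, 19.5%, 18.9% and 11.5% in those fits, in order). Under that block Grm2 had an adjusted p of 0.0531 and Grin2b 0.0565, while Grik1 (0.0378) and Grm7 (0.0485) passed. Whether the shared numbers pair the naive mice was not settled. DMM against naive with AP20187 (2) gave 1 with no filter, 5 with DESeq2, 0 with limma, 0 with only the groups compared, and 0 to 2 leaving out 1 mouse. Of all genes, 0.792% were called in the main fit. The shares in those fits, in order, were 0.218%, 4.94%, 5.69%, 0.578%, and 0.203% to 1.23%. The interaction (0) gave 1 with DESeq2 and 0 to 1 leaving out 1 mouse, where 0.984% and 0.0553% to 0.249% of all genes were called. Per pan-neuronal count, DMM gave 0 to 10, naive mice 0 to 3 and DMM against naive with AP20187 0 to 1 leaving out 1 mouse. Of all genes, 7.35% to 62%, 0.263% to 33% and 0.023% to 0.058% were called in those fits, in order. With nociceptor and large-fibre genes as the scale, DMM gave 5, all higher, where 41.3% of all genes were called. Naive mice gave 2, both lower, where 8.64% were called. DMM against naive with AP20187 gave 2, both higher, where 0.183% were called. Over all genes, the count in DMM was 5386 (24.7%), and 8373 or 1172 against the 2 sets of vehicle mice. The share was 25.7% without TMM, 24.7% with the size factors of DESeq2 and 12.9% with no filter. It was 31.9% with DESeq2, 28% with limma and 20.4% with only the groups compared. The cause of these shifts was not tested. DMM against naive with vehicle stayed at 0 under every alternative run. In DMM, Gria4 changed sign to 0.09 against mice 63 and 64. Gabrr1 (0.16) changed sign to -0.41 against mice 32 to 34, and leaving out 1 mouse, over a range of -0.42 to 0.83, to -0.24 (AP20187 58), -0.42 (AP20187 62), -0.08 (vehicle 34) and -0.16 (vehicle 64). Direction was kept by 33 of 46 receptor genes against mice 63 and 64, and by 44 against mice 32 to 34. Few counts, in libraries of at least 60984830, limit Grm2, Glra1, Grm6 and the rho subunits.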
